A study of Homo sapiens with 6 samples.

Results

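The collagen and laminin genes of cells labelled HepG2 were examined. Every row of the deposited expression table was taken whose symbol gives a collagen alpha chain (such as COL4A1). So was every row for a laminin alpha, beta or gamma chain (such as LAMB3). The rule found 46 of the 27605 genes, 35 collagens and 11 laminins. The labels describe HepG2 cells, a hepatoma carcinoma line, treated with lentivirus that carried either a negative control hairpin (shNC) or one that targets ARHGEF2 (shARHGEF2), with n = 3 libraries in each group, grown in DMEM with fetal bovine serum. No other agent is given for either group, and whether the libraries of a group share 1 hairpin or come from separate cultures is not given, so the p-values measure the spread between these libraries, which may be technical. Values are FPKM, the fragments assigned to a gene relative to the length of its transcripts and to the mapped fragments of the library. Levels of different genes can be compared on this scale only roughly, since it does not correct for the base composition of transcripts. A gene was called expressed when its mean over the 6 libraries was at least 0.5 FPKM.

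Collagens and laminins are secreted proteins of the extracellular matrix, and each is a trimer of chains that are encoded by separate genes or by copies of the same gene. Laminins join an alpha, a beta and a gamma chain and assemble, together with collagen IV, into the basement membrane under epithelia and around vessels. Fibrillar collagens such as I, III and V make the fibrils of the interstitial matrix, and in fibrotic liver most of these fibrils are deposited by activated stellate cells. ARHGEF2 encodes GEF-H1, a microtubule-bound exchange factor that activates the small GTPase RHOA.

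ARHGEF2, the targeted gene, had 13.03, 14.4 and 13.9 FPKM in shNC and 4.25, 4.004 and 4.82 FPKM in shARHGEF2 replicates 1 to 3. It fell by 1.47 on the log2 scale (SE 0.11, adjusted p = 0.00244 in limma), although the adjusted p was 0.0716 with the replicate number as a block and 0.0701 without a filter on low values. Each library held an estimated 20220000 to 23280000 read pairs. Of 18 hepatocyte markers, 12 had a row, 10 of these had a mean under 0.1 FPKM, and only ASGR1 reached a mean of 0.5 FPKM (0.656 to 1.496 FPKM). AFP and HNF4A stayed at or under 0.0956 FPKM and SERPINA1 at or under 0.0103 FPKM. The libraries labelled HepG2 thus had little or none of the hepatocyte transcripts with a row. Whether the cells are HepG2 was not tested. All 7 epithelial markers had a row, and 5 reached a mean of 0.5 FPKM. The keratins KRT8 and KRT18 had 107 to 216 FPKM, KRT19 had 60.4 to 75.7 FPKM and CLDN7 had 12.9 to 16.3 FPKM. CLDN4 had 6.12, 4.77 and 7.30 FPKM in shNC and 0.111, 10.8 and 12.4 FPKM in shARHGEF2 replicates 1 to 3. EPCAM and CDH1 stayed at or under 0.0547 FPKM. Of 10 markers of fibroblasts and stellate cells, which make collagen, 9 had a row and 5 reached a mean of 0.5 FPKM. LUM was at 22.5 to 39.0 FPKM, and ACTA2, DCN, DES and PDGFRB had means of 5.24, 2.12, 1.93 and 0.56 FPKM. PDGFRA and THY1 were at or under 0.0652 FPKM. The 9 genes summed to 36.5 to 50.9 FPKM in shNC and 33.4 to 40.4 FPKM in shARHGEF2. Of the endothelial list, 6 genes had a row, and CDH5, VWF and TEK were at or under 0.0385 FPKM. ESAM had 3.18 to 3.40 FPKM in shNC and 3.65 to 4.14 FPKM in shARHGEF2, PECAM1 had 0.539 to 0.606 FPKM and 0.760 to 0.854 FPKM, both without overlap, and the sum of the list was 3.85 to 4.02 FPKM in shNC and 4.48 to 5.01 FPKM in shARHGEF2. Of 7 leukocyte markers, 6 had a row and only CD68 reached a mean of 0.5 FPKM, with 60.4 to 87.8 FPKM. PTPRC, CD3E, ITGAM and LYZ were at or under 0.0737 FPKM. The part of other cell types in the results below was not tested. In bulk RNA, more cells of a type and more RNA per cell cannot be told apart.

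Of the 46 genes, 28 were expressed, 22 collagens and 6 laminins. All 6 chains of collagen IV, the 3 laminin beta chains with a row and both multiplexins, the basement membrane collagens XV and XVIII, were among them. Of the 11 fibrillar collagen genes 5 were expressed, and of the 5 laminin alpha genes only LAMA5. Of the 6 genes with a row of the FACIT class, which attach to the surface of fibrils, 3 were expressed. LAMB3 had the highest mean, 131 FPKM, and ranked 312 of the 27605 genes. COL5A1 (91.1 FPKM), LAMA5 (70.0 FPKM), COL7A1 (61.0 FPKM) and COL4A2 (40.8 FPKM) followed. The lowest gene inside the minimum was COL13A1 at a mean of 0.521 FPKM and the highest outside it was LAMA3 at 0.491 FPKM. Also outside it were COL11A2, COL9A2, COL5A3, LAMA1 and COL17A1, with means of 0.224 to 0.460 FPKM, and COL26A1, COL1A2, COL2A1, LAMA4, COL11A1, LAMA2, COL6A3, COL24A1, COL28A1, COL22A1 and COL14A1, the 11 with a mean under 0.1 FPKM. COL6A5, COL6A6, COL9A1, COL10A1, COL19A1, COL20A1, COL21A1, COL23A1, COL25A1 and LAMB4 had no row under these symbols and could not be analysed.

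**Figure D1:**
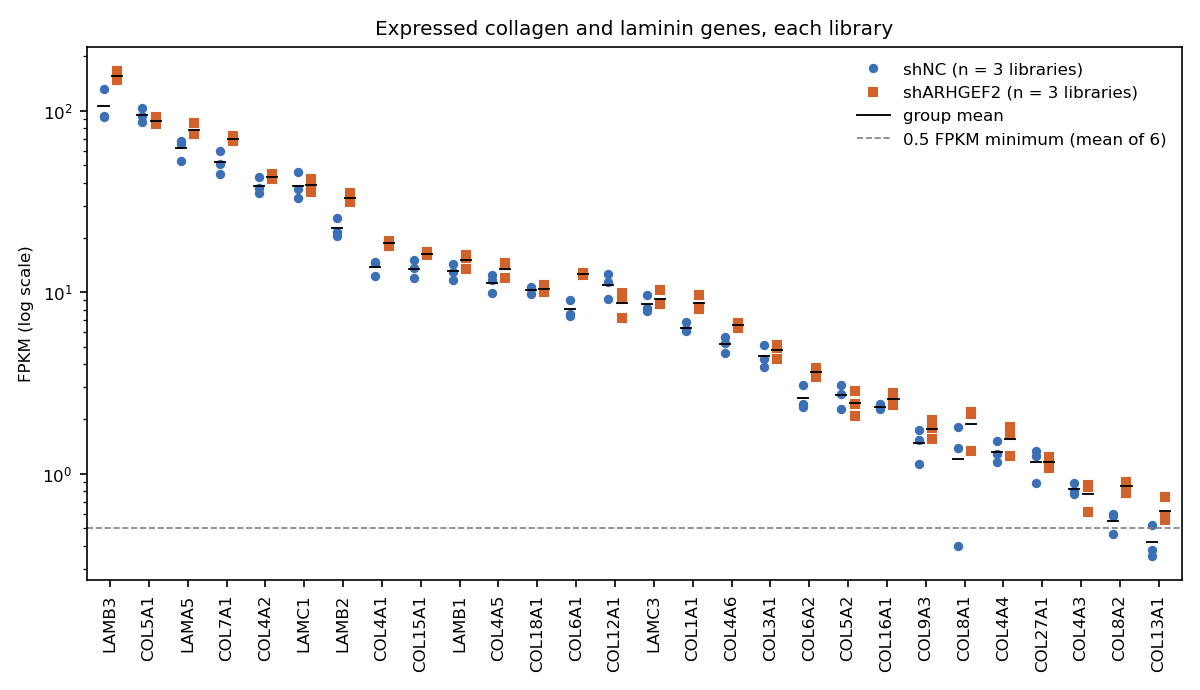
FPKM of the 28 expressed collagen and laminin genes on a log axis, ordered by their mean. Each point is 1 library (circles shNC, squares shARHGEF2, n = 3 each), short lines are group means and the dashed line is the 0.5 FPKM minimum. LAMB3 stands at 92.2 to 165 FPKM and COL13A1 at 0.353 to 0.744 FPKM.

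Chains that assemble into the same trimer differed widely in level. LAMB3 encodes the beta3 chain of laminin-332, the laminin of hemidesmosomes, which also holds the product of LAMA3. Its mean was 266 times that of LAMA3 (205 to 329 times in single libraries). The ratio of LAMB3 to LAMA3 was 238, 205 and 320 in shNC and 329, 229 and 282 in shARHGEF2, and the groups overlapped. The chains of laminin-511 and of laminin-521 lay much closer together. LAMA5 had 1.81 times the mean of LAMC1, the common gamma chain, and LAMC1 had 2.77 times the mean of LAMB1 and 1.39 times that of LAMB2.

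The same contrast was found among the collagens. Collagen I normally holds alpha1 chains from COL1A1 and an alpha2 chain from COL1A2. COL1A1 had 6.08 to 9.60 FPKM, while COL1A2 reached at most 0.0453 FPKM and was at 0 in shARHGEF2 replicate 2. COL6A1 and COL6A2 were both expressed, with a ratio of 3.31, but COL6A3, the gene of the long alpha3 chain of collagen VI, stayed at or under 0.0279 FPKM. The COL6A1 mean was 1023 times the COL6A3 mean. COL5A1 was 35.4 times as abundant as COL5A2 (29.3 to 44.2 times in single libraries) and 263 times as abundant as COL5A3. Only transcripts were measured, so the ratios say nothing of the assembled proteins. The chains also differ in GC content, which FPKM does not correct for. It was 58.9% for LAMB3 and 50.7% for LAMA3, 61.1% for COL1A1 and 41.7% for COL1A2, and 63.5% for COL6A1 and 53.2% for COL6A3. COL5A1 had 60.3%, COL5A2 47.9% and COL5A3 64.2%. The part of GC content in the ratios was not tested.

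**Figure D2:**
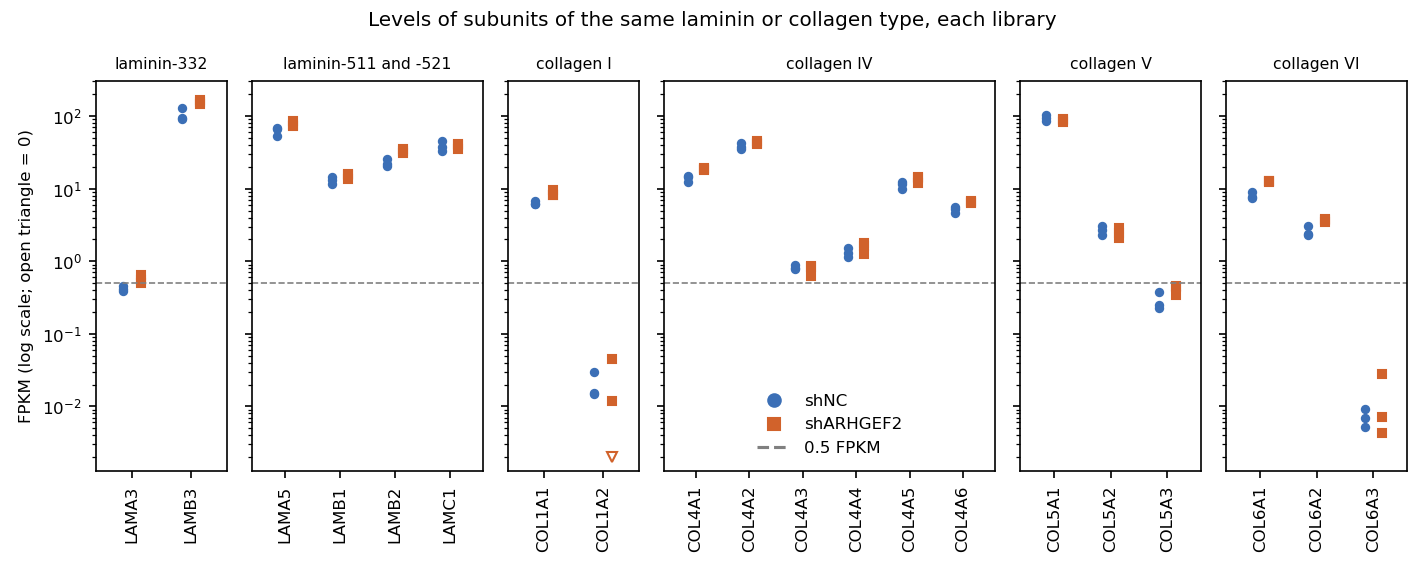
FPKM on a log axis of chains of laminin-332, laminin-511, laminin-521 and collagens I, IV, V and VI, with 1 point per library (circles shNC, squares shARHGEF2, n = 3 each). LAMA3, COL1A2, COL5A3 and COL6A3 have means under the dashed line at 0.5 FPKM while LAMB3, COL1A1, COL5A1 and COL6A1 stand well above it; the open triangle marks the library in which COL1A2 was at 0.

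The 28 expressed genes were compared between the groups in a limma fit of log2(FPKM + 1) over all 12291 genes that reached the 0.5 FPKM minimum. None of the 28 passed an adjusted p of 0.05. Of all genes tested 0.277% passed it (34 genes), 0.195% higher and 0.0814% lower. At an unadjusted p under 0.05, 11 were higher in shARHGEF2 and 0 were lower, against 8.1% of all genes higher and 5.55% lower. All 3 shARHGEF2 libraries lay above all 3 shNC libraries for 12 of the 28 genes, against 11.3% of all genes, and below them for 0, against 9.17%. The fitted fold change was above 0 for 24 genes, against 49.6% of all genes tested. Its median was 0.19 over the 28 genes and -0.00164 over all genes.

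Transcripts of these genes are rich in G and C, and the libraries differed in how their values followed GC content. The median GC content was 59.6% for the 28 genes (46.3% to 67.4%) and 50.7% for all genes tested. Their longest listed transcripts were also longer, with a median of 6488.5 bases against 3041 bases for all genes tested with a GC content. The part of transcript length in the results was not tested. Over all genes, Spearman's rho between GC content and a library's deviation from its group mean was 0.38, -0.52 and 0.23 in shNC and 0.60, -0.49 and -0.18 in shARHGEF2 replicates 1 to 3. After a loess trend on GC content was removed from each library, 22 of the 28 genes were fitted higher, against 48.6% of all genes, and the median was 0.17. An unadjusted p under 0.05 was then found for 13 of the 28 genes and for 18.7% of all genes. Again none passed an adjusted p of 0.05. Across the 28 genes, which share these libraries, rho between GC content and the fold change was 0.26 and became 0.14 after the removal. Over all genes tested with a GC content it was 0.136 and became -0.0061. These are given as a description only.

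**Figure D3:**
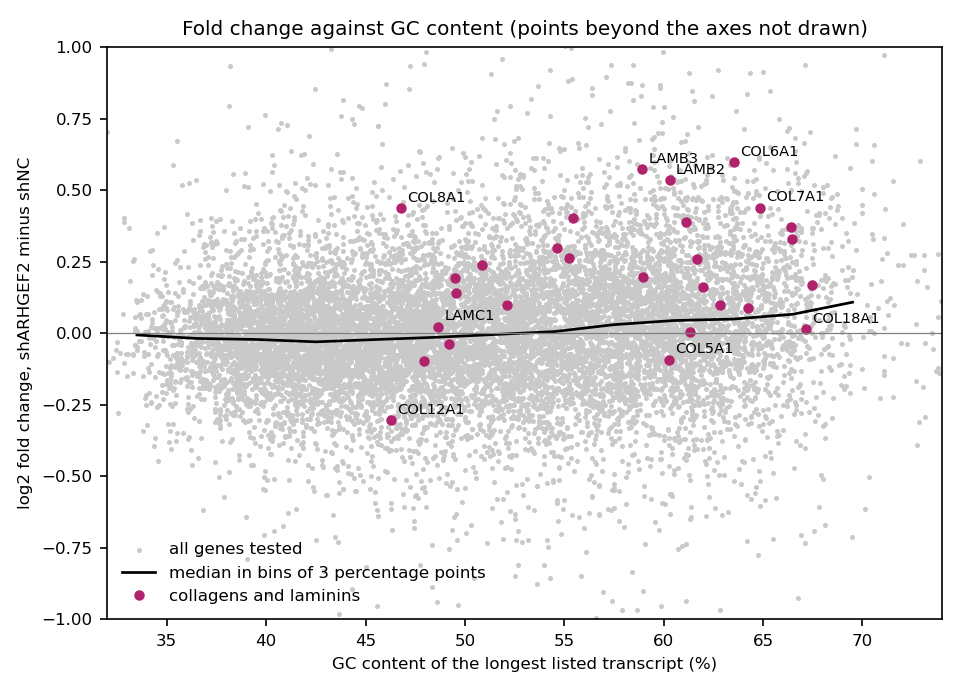
Fitted log2 fold change (shARHGEF2 minus shNC) against the GC content of the longest listed transcript, for all genes tested (grey), with their median in bins of GC content (line), and for the 28 collagens and laminins (coloured points). Most of the 28 genes lie above 0, at GC contents of 46.3% to 67.4%, with COL12A1 the lowest at -0.30.

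LAMB3 is the laminin gene with the highest level and lies on chromosome 1 from 209614870 to 209652466 (minus strand, GRCh38). It had 93.2, 92.2 and 131 FPKM in shNC and 165, 147 and 155 FPKM in shARHGEF2. Every shARHGEF2 library was above every shNC library, with shNC replicate 3 nearest to them. The group means were 106 ± 22.2 and 156 ± 9.13 FPKM (SD, n = 3 each), and the log2 fold change was 0.57 (SE 0.14, adjusted p = 0.136 in limma). LAMB2, the beta chain of laminin-521 (chromosome 3, 49121114 to 49133118, minus strand), had 20.5, 21.6 and 25.7 FPKM in shNC and 35.2, 32.6 and 31.4 FPKM in shARHGEF2. Here too the groups did not overlap. The fold change was 0.54 (SE 0.11, adjusted p = 0.114). LAMB1, the beta chain of laminin-511, had 11.7 to 14.4 FPKM in shNC and 13.5 to 15.9 FPKM in shARHGEF2, and these ranges overlapped (0.19, 95% interval -0.07 to 0.45). The ratio of LAMB2 to LAMB1 was 1.75, 1.502 and 1.98 in shNC and 2.61, 2.05 and 2.03 in shARHGEF2.

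Among the alpha and gamma chains, LAMA5 had 52.8, 65.4 and 68.0 FPKM in shNC and 85.2, 74.1 and 74.5 FPKM in shARHGEF2. The groups did not overlap, although shNC replicate 3 lay near the lowest shARHGEF2 library (0.33, SE 0.12, adjusted p = 0.266). Without shNC replicate 1, the lowest of its group, the value was 0.22 (adjusted p = 0.538). LAMA5 (chromosome 20, 62307955 to 62367312) overlaps ADRM1 on the opposite strand, a gene at 126 FPKM, and the strand setting of the counting is not given in the sources used here. The same limit holds for COL4A1 and COL4A2, which overlap each other, for COL18A1 (SLC19A1 at 6.11 FPKM), for COL9A3 (TCFL5 at 10.7 FPKM) and for LAMB1 (DLD at 2.08 FPKM). LAMC1, the gamma chain of most laminins, had 33.1, 45.7 and 37.0 FPKM in shNC and 35.7, 41.8 and 39.4 FPKM in shARHGEF2. Its groups overlapped fully, and the interval of its fold change was -0.27 to 0.31. LAMC3 had 7.90 to 9.64 FPKM in shNC and 8.60 to 10.3 FPKM in shARHGEF2 (0.09, 95% interval -0.19 to 0.36).

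COL6A1 had the smallest p of the 28 genes and ranked 66 of the 12291 tested. It encodes the alpha1 chain of collagen VI, which forms beaded microfilaments around cells, and lies on chromosome 21 from 45981737 to 46005050 (plus strand). Its values were 7.57, 7.43 and 9.09 FPKM in shNC and 12.4, 12.8 and 12.7 FPKM in shARHGEF2. The shARHGEF2 libraries lay close together and far above the shNC libraries. The means were 8.03 ± 0.920 and 12.6 ± 0.234 FPKM (SD, n = 3 each), which gave 0.60 on the log2 scale (SE 0.11, adjusted p = 0.0793). COL6A2, the neighbouring gene on the same strand (46098097 to 46132849), had 2.41, 2.31 and 3.07 FPKM in shNC and 3.799, 3.69 and 3.42 FPKM in shARHGEF2. It was also higher without overlap (0.37, SE 0.12, adjusted p = 0.249). The ratio of COL6A1 to COL6A2 stayed between 2.96 and 3.70 in all libraries.

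These 3 genes, LAMB3, LAMB2 and COL6A1, were sensitive to 1 library. Without shNC replicate 3, whose values were the highest of its group for each of them, LAMB3 (0.74, adjusted p = 0.0264), LAMB2 (0.63, adjusted p = 0.0474) and COL6A1 (0.68, adjusted p = 0.0440) passed the threshold in limma, and 0.618% of all genes passed it as higher. In the other 13 alternatives 0 of these genes passed, where the filter of at least 1 FPKM in 3 or more libraries kept 25 of the 28 (not COL4A3, COL8A2 and COL13A1). The adjusted p of COL6A1 over all alternatives ranged from 0.0440 to 0.368, that of LAMB2 from 0.0474 to 0.401 and that of LAMB3 from 0.0264 to 0.459.

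Collagen IV forms the network of basement membranes, and its 6 genes lie as 3 pairs that start next to each other and run in opposite directions. The stretches between the starts of each pair are shown because both genes of a pair are read from them, while the levels within a pair differed. They are RefSeq sequences of GRCh38.p14, plus strand, in full for COL4A1 and COL4A2 (chr13:110307158-110307283) and as the 250 bases next to the COL4A3 start (chr2:227164374-227164623) and the COL4A5 start (chrX:108439588-108439837). Capitals mark matches on either strand to the CCAAT box, to the TATA box (letters TATAAA) or to the GC box (letters GGGCGG), which do not overlap here.
COL4A1/COL4A2: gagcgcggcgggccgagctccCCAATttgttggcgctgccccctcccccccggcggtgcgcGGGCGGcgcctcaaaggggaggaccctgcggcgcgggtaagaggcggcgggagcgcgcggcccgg
COL4A4/COL4A3: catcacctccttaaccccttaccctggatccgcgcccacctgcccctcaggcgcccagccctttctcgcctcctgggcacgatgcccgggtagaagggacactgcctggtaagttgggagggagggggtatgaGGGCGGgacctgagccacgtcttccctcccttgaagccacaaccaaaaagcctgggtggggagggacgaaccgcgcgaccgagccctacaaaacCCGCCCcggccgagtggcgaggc
COL4A6/COL4A5: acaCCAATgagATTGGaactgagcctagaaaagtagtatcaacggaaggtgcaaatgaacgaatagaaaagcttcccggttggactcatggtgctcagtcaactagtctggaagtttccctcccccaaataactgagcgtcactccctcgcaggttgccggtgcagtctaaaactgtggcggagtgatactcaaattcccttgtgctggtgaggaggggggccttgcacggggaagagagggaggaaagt

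The COL4A1 and COL4A2 stretch is 126 bases long and holds 1 CCAAT box match and 1 GC box match. For COL4A4 and COL4A3 the starts are 418 bases apart, and the stretch shown holds 2 GC box matches. For COL4A6 and COL4A5 the distance is 379 bases, with 2 CCAAT box matches in the stretch shown. RefSeq promoters were found for 21 of the 28 expressed genes (26 windows of 250 bases before a start). Of these windows, 84.6% held the GC box letters, 19.2% the CCAAT box and 15.4% the TATA box, against 42.6%, 32.01% and 10.7% of 35116 windows of all genes. The windows of all genes were not limited to expressed genes, while those of the members were, so the shares are not of like sets. The COL4 pairs share bases, so their windows are not independent, and a match is not evidence of a bound factor.

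COL4A1 and COL4A2, the chains of the collagen IV found in every basement membrane, were the most abundant pair. COL4A1 had 12.3, 14.7 and 14.4 FPKM in shNC and 17.9995, 19.2 and 18.4 FPKM in shARHGEF2, with no overlap (0.40, SE 0.10, adjusted p = 0.152). COL4A2 had 35.0, 37.3 and 43.3 FPKM in shNC and 45.03, 42.4 and 41.8 FPKM in shARHGEF2, where shNC replicate 3 lay inside the shARHGEF2 range (0.16, 95% interval -0.07 to 0.39). The ratio of COL4A2 to COL4A1 was 2.85, 2.53 and 3.00 in shNC and 2.50, 2.21 and 2.27 in shARHGEF2. It was lower in every shARHGEF2 library, with the nearest libraries of the groups close together. COL4A5 had 9.85 to 12.4 FPKM in shNC and 11.98 to 14.4 FPKM in shARHGEF2 (0.24, adjusted p = 0.432, and 0.15 without shNC replicate 1), and COL4A6 had 4.65, 5.64 and 5.26 FPKM against 6.76, 6.37 and 6.61 FPKM (0.30, SE 0.11, adjusted p = 0.289). Of this pair only COL4A6 was free of overlap. COL4A4 had 1.16 to 1.51 FPKM in shNC and 1.25 to 1.80 FPKM in shARHGEF2, and COL4A3 had 0.771 to 0.889 FPKM and 0.618 to 0.866 FPKM. Both overlapped, with fold changes of 0.14 and -0.04.

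Of the other basement membrane collagens, COL7A1 makes the anchoring fibrils that hold epithelia to the tissue below (chromosome 3, 48564073 to 48595267, minus strand). It had 44.9, 50.8 and 59.8 FPKM in shNC and 72.4, 70.3 and 67.7 FPKM in shARHGEF2, without overlap (0.44, SE 0.11, adjusted p = 0.152). COL15A1 had 11.9, 15.0 and 13.6 FPKM in shNC and 16.7, 16.0 and 16.2 FPKM in shARHGEF2, also without overlap (0.26, SE 0.11, adjusted p = 0.338). COL18A1, the precursor of the angiogenesis inhibitor endostatin, had 10.4, 9.77 and 10.6 FPKM in shNC and 11.0, 10.0 and 10.1 FPKM in shARHGEF2. It showed no difference beyond the spread, with an interval of -0.21 to 0.24.

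Among the fibrillar collagens, COL5A1 had the highest level. Its values were 86.8, 103 and 92.9 FPKM in shNC and 91.8, 84.1 and 88.4 FPKM in shARHGEF2, and the groups overlapped (-0.09, 95% interval -0.30 to 0.12). COL5A2 had 2.28 to 3.08 FPKM in shNC and 2.08 to 2.87 FPKM in shARHGEF2 (-0.10, 95% interval -0.41 to 0.22). Collagen V was thus the fibrillar type with both expressed chains fitted below 0. COL1A1 (chromosome 17, 50183289 to 50201632, minus strand) had 6.23, 6.81 and 6.08 FPKM in shNC and 9.60, 8.26 and 8.13 FPKM in shARHGEF2. It was the fibrillar gene without overlap (0.39, SE 0.11, adjusted p = 0.188). COL3A1, the chain of collagen III, had 3.88 to 5.14 FPKM in shNC and 4.29 to 5.14 FPKM in shARHGEF2 (0.10, SE 0.13), and COL27A1 had 0.887 to 1.34 FPKM and 1.07 to 1.24 FPKM (95% interval -0.28 to 0.28).

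COL12A1, a FACIT collagen that binds the surface of collagen I fibrils, had the lowest fitted value. It had 9.14, 12.5 and 11.4 FPKM in shNC and 7.20, 9.86 and 9.12 FPKM in shARHGEF2. The highest shARHGEF2 library exceeded the lowest shNC library, so the groups overlapped (-0.30, SE 0.15, adjusted p = 0.417). Its value was below 0 in all 14 alternatives (-0.42 to -0.19). The FACIT genes COL16A1 (2.27 to 2.79 FPKM, 0.10) and COL9A3 (1.13 to 1.97 FPKM, 0.17) overlapped as well. COL8A1, a chain of the short network collagen VIII, had 1.39, 1.82 and 0.398 FPKM in shNC and 1.34, 2.20 and 2.12 FPKM in shARHGEF2. The low value of shNC replicate 3 stood apart, and the fold change of 0.44 (SE 0.26) was 0.14 without that library. Its partner COL8A2 had 0.463, 0.588 and 0.597 FPKM in shNC and 0.903, 0.780 and 0.874 FPKM in shARHGEF2, without overlap (0.26, SE 0.10, adjusted p = 0.326). COL13A1, a transmembrane collagen, had 0.380, 0.353 and 0.522 FPKM against 0.573, 0.744 and 0.554 FPKM, also without overlap (0.20, SE 0.11, adjusted p = 0.470). For these low genes the pseudocount mattered, and with 0.1 in place of 1 the values were 0.79 for COL8A1, 0.56 for COL8A2 and 0.49 for COL13A1, with adjusted p of 0.338 to 0.555.

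**Figure D4:**
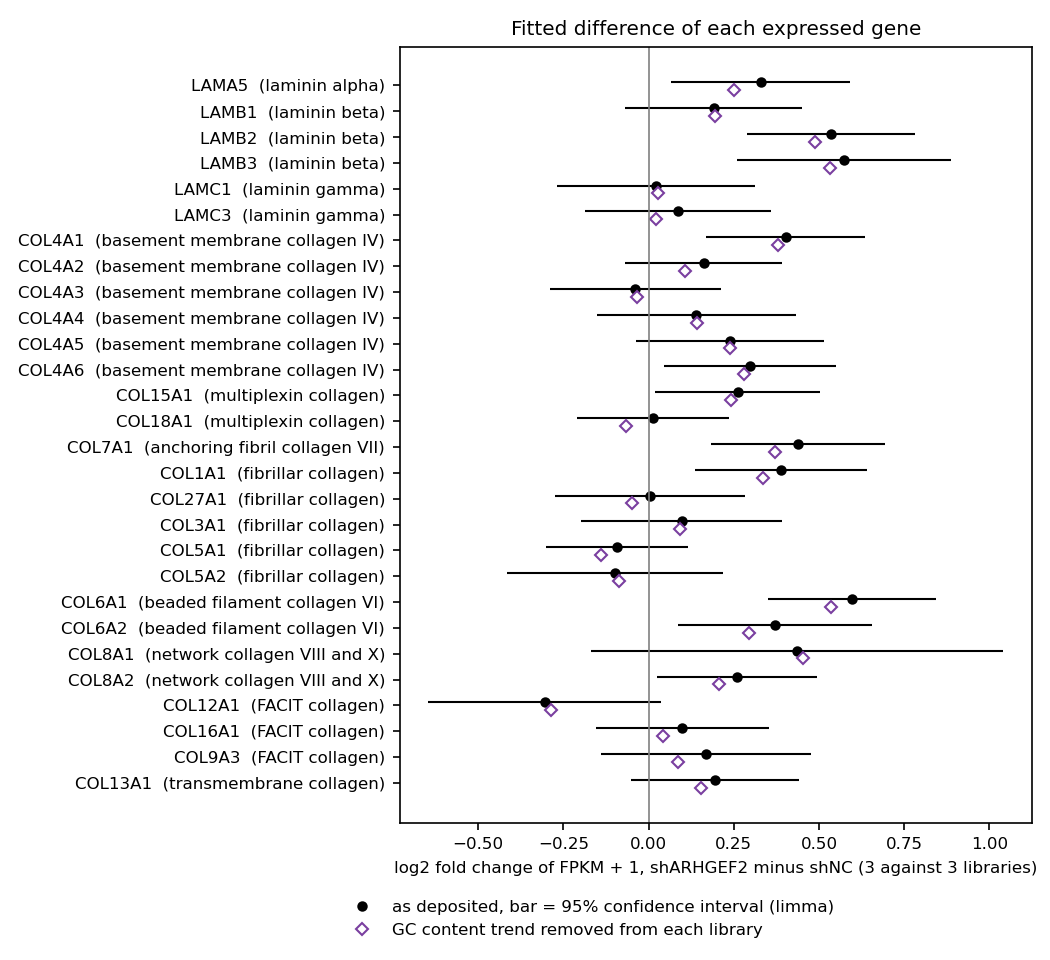
Log2 fold change of FPKM + 1 (shARHGEF2 minus shNC, n = 3 each) of the 28 expressed genes, grouped by role. Filled circles with bars are the fit with its 95% confidence interval in limma, and open diamonds the value after the GC content trend was removed. COL6A1 is the highest at 0.60 and COL12A1 the lowest at -0.30.

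The summed level of the expressed genes was compared as well, with no test. The 22 collagens summed to 256, 296 and 297 FPKM in shNC and 323, 317 and 316 FPKM in shARHGEF2. The 6 laminins summed to 219, 247 and 285 FPKM in shNC and 345, 320 and 325 FPKM in shARHGEF2. In both families every shARHGEF2 library was above every shNC library, and the ratio of the means was 1.13 for collagens and 1.32 for laminins. LAMB3 supplied 37.3% to 47.8% of the laminin sum, and without it the ratio was 1.20. COL5A1 supplied 26.5% to 34.7% of the collagen sum, and without it the ratio was 1.22.

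**Figure D5:**
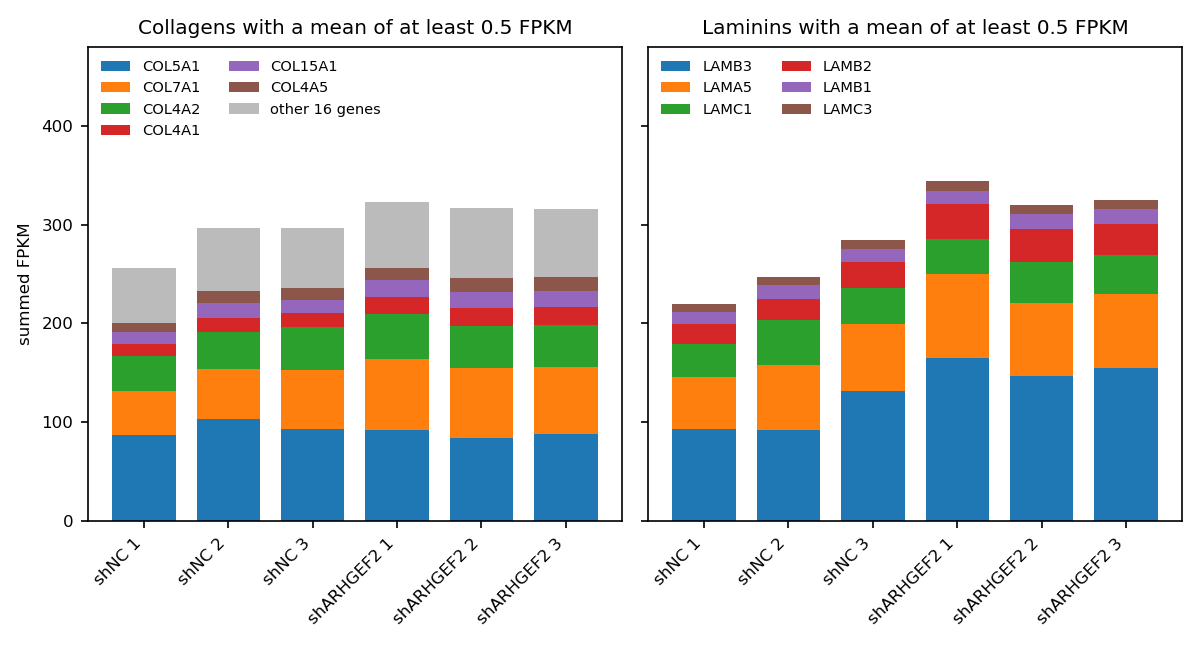
Summed FPKM per library of the 22 expressed collagens (left) and the 6 expressed laminins (right), stacked by gene with the axis starting at 0. The collagen bars reach 256 to 297 FPKM in shNC and 316 to 323 FPKM in shARHGEF2, and the laminin bars 219 to 285 FPKM and 320 to 345 FPKM.

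Other genes of the pathway were taken from 6 lists of 76 names, of which 68 had a row and 51 were tested. None of the 51 passed an adjusted p of 0.05 in limma. At an unadjusted p under 0.05, 8 were higher and 1 was lower, against 8.1% and 5.55% of all genes tested. Of the 51, 39 were fitted higher, with a median of 0.13, against 49.6% of all genes, the share to set beside the count of each list. Of the 13 tested genes of collagen hydroxylation and glycosylation, 11 were fitted higher, and the smallest p belonged to P4HA3, an alpha subunit of prolyl 4-hydroxylase. P4HA3 had 1.43, 1.39 and 1.71 FPKM in shNC and 2.55, 2.97 and 3.13 FPKM in shARHGEF2, without overlap (0.63, SE 0.12, adjusted p = 0.102). Of the 9 genes of folding and secretion, 7 were fitted higher, led by the COPII coat gene SEC24D (0.39, adjusted p = 0.277). Of the 4 of propeptide processing, 3 were fitted higher, led by PCOLCE2 (0.28, adjusted p = 0.321). The 6 crosslinking genes were split evenly, and the smallest p was that of lysyl oxidase, LOX (-0.28, adjusted p = 0.444). Of the 8 basement membrane partners, 6 were fitted higher, led by TINAGL1 (0.38, adjusted p = 0.158), while the nidogens NID1 and NID2, which link laminin to collagen IV, stayed at or under 0.0672 FPKM. Of the 11 receptors, 9 were fitted higher, led by the laminin receptor subunit ITGA7 (0.36, adjusted p = 0.266).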

How the data were processed

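RNA of 3 shNC and 3 shARHGEF2 libraries was sequenced after poly(A) selection, with a dUTP strand-marking kit and molecular identifiers per the labels. The submitters' processing notes name cutadapt 1.9, HISAT2 2.0.4, UMI-tools, StringTie 1.3.4d, DESeq2, edgeR and hg19. The authors deposited 1 table of FPKM per gene and library, used as deposited. Its fold change and p-value columns hold the authors' own comparison and were not used. No read counts were analysed, so no count test was run.

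The columns of the 6 libraries were assigned by the labels. limma 3.58.1 (R 4.3.3, statmod 1.5.0) was fitted on log2(FPKM + 1), which understates changes of low genes, with eBayes (trend, robust) for the 12291 genes whose mean reached 0.5 FPKM, with Benjamini-Hochberg adjusted p-values. Tests were two-sided. Residuals of same-numbered libraries correlated at 0.184, 0.159 and -0.105, which did not pair them, and no block was used. The code was tested on simulated data. GC content came from GENCODE 29 transcripts (99.5% of genes tested), and positions from its GRCh38 annotation by gene ID (46 of 46), since the table holds no coordinates. Depth was estimated from the spacing of low FPKM values, as the depth at which most of them fell within 0.1 of a whole number of pairs. That share was 42.0% to 43.1%, the highest over many depths tried, while 20% is the chance share for a fixed depth. The depths are therefore approximate. The depth entered no test, and no counting interval was computed.

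The genes named are the members, except 1 that is not reported here, ARHGEF2, and for each list of the pathway the gene with the smallest p, with the nidogens, the cell type markers, the genes that overlap a member and the other pathway genes added after their values were seen. The members and lists were chosen with earlier results of these data known. The alternatives were a pseudocount of 0.1, the replicate number as a block, no filter, 1 FPKM or more in 3 libraries, quantile normalization, median centring, no trend or robust variances, values with the GC content trend taken out by loess (span 0.3) and each library left out. Python 3.11.15 with pandas 2.3.3 and matplotlib 3.10.9 was used for tables and plots.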

Additional observations from a re-analysis of the deposited data

How the results depend on the processing

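The count of genes called over the whole table moved with the processing, from 34 (24 higher and 10 lower) to 0 with the replicate block, 1 without a filter, 54 with at least 1 FPKM in 3 libraries, 19 with quantile normalization (12 higher, 7 lower), 6 with median centring (3 higher, 3 lower), 7 without trend or robust variances, 57 with the GC content trend removed (40 higher, 17 lower) and 6 to 102 when 1 library was left out. Of the expressed collagen and laminin genes, 0 to 3 were called when 1 library was left out, the 3 without shNC replicate 3. In every other alternative 0 of them were called. With the replicate block 1976 genes had an unadjusted p under 0.05, 13 of them collagens or laminins, and the block changed no call among these genes. ARHGEF2 kept its value of -1.47 but had an adjusted p of 0.0716 with the replicate block and 0.0701 without a filter. The cause of these moves was not tested.

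Of the 28 genes, 24 kept the sign of their fold change in every one of the 14 alternatives that fitted them. The filter of at least 1 FPKM in 3 or more libraries fitted 25 of them, 22 higher, and the other alternatives fitted all 28, 22 to 24 higher, with medians of 0.16 to 0.26 over the alternatives. When 1 library was left out, the values of 17 genes moved by over 1.5 times or turned, 1 of them (LAMA5) among the 12 genes without overlap. The 4 genes whose sign turned lay near 0. LAMC1 was -0.0129 with quantile normalization and -0.0794 to 0.147 when 1 library was left out, and COL18A1 was -0.0101 and -0.0665 with quantile normalization and the GC content trend removed and -0.0255 to 0.0377 when 1 library was left out. COL27A1 was -0.0475 with the GC content trend removed and -0.0910 to 0.0640 when 1 library was left out, and COL4A3 was -0.0756 to 0.0274 when 1 library was left out. Values under 0.5 FPKM stand for few read pairs and were not tested.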

Other observations

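P3H1, a prolyl 3-hydroxylase, had 13.4, 12.9 and 14.4 FPKM in shNC and 18.6, 18.5 and 18.4 FPKM in shARHGEF2, without overlap (log2 fold change 0.42, SE 0.09, adjusted p = 0.117 in limma). PLOD3, a lysyl hydroxylase that also glycosylates collagen, had 30.9, 29.5 and 33.9 FPKM and 43.0, 37.9 and 37.4 FPKM (0.32, SE 0.10, adjusted p = 0.218). PLOD2, the lysyl hydroxylase of collagen telopeptides, overlapped, with 5.68, 10.3 and 6.73 FPKM against 3.52, 7.08 and 6.43 FPKM (-0.37, SE 0.27, adjusted p = 0.609). LOXL2, the crosslinking enzyme with the highest level, had 121, 122 and 140 FPKM in shNC and 119, 118 and 119 FPKM in shARHGEF2, which lay just below (-0.10, SE 0.09, adjusted p = 0.676). The chaperone SERPINH1, which binds procollagen in the endoplasmic reticulum, had 61.3 to 63.7 FPKM in shNC and 66.3 to 72.3 FPKM in shARHGEF2 (0.13, SE 0.08, adjusted p = 0.532). These genes were named after their values were seen, and none of them passed the threshold.

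Of the genes under the expression minimum, COL17A1, the transmembrane collagen of hemidesmosomes, had 0.256, 0.230 and 0.306 FPKM in shNC and 0.191, 0.188 and 0.170 FPKM in shARHGEF2. Its libraries did not overlap, at a level that was left out of the main fit. Among all genes under the minimum, the share without overlap was not computed. A separation of the groups there is given as a description only. LAMA3 had 0.391, 0.450 and 0.410 FPKM and 0.502, 0.640 and 0.551 FPKM, and was higher in every shARHGEF2 library. ITGB4, the hemidesmosome integrin subunit, had 36.6, 39.3 and 51.8 FPKM and 59.8, 47.0 and 52.7 FPKM, with overlap (0.32, SE 0.14, adjusted p = 0.375).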
